A study of Arabidopsis thaliana with 12 samples.

Results

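The comparison of NatA-depleted amiNAA10 seedlings with Col-0 seedlings of Arabidopsis thaliana takes in every transcript of its table, 33687 of the 33687 that the 3 tables of the series hold together. Of these, 19187 had a mean of at least 20 normalized counts over amiNAA10 and both Col-0 means and were kept. The series holds 12 poly(A) RNA-seq libraries, 3 for each of 4 lines: amiNAA10, naa20, doa10a/b RNAi 4-2 and WT. All 4 lines were grown as whole seedlings to an age of 10 days on plates, and each library was made from pooled seedlings. The amiNAA10 line carries an artificial microRNA against NAA10 in the Col-0 background, so NAA10 is depleted and not deleted, and it is 1 line. WT is the Col-0 accession with no transgene. The line labelled naa20 carries a mutation in the catalytic subunit of NatB, and doa10a/b RNAi 4-2 is a doa10a insertion mutant with an RNAi construct against DOA10B. In bulk seedlings, fewer cells of a type and less RNA per cell cannot be told apart.

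N-terminal acetyltransferase A (NatA) is a ribosome-bound complex that transfers an acetyl group to the first residue of nascent proteins. NAA10 is its catalytic subunit and NAA15 anchors it to the ribosome. It acts on small residues (alanine, serine, threonine, valine, glycine and cysteine) that are exposed once the initiator methionine has been removed, and so on a large share of the plant proteome. In Arabidopsis its loss is lethal to the embryo, and plants with lowered NatA have been used to study drought tolerance and protein stability.

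Each amiNAA10 value was set against 2 references. One is the Col-0 mean printed in the same table, which the data statement of the study assigns to libraries of another series and for which only the mean was used, with no SD and no n. The other is the Col-0 of this series, called WT, for which 3 libraries could be read. The line and the series cannot be told apart in the comparison with the Col-0 of the same table. WT is of the same series as amiNAA10, but the data statement relates it to the doa10a/b RNAi line. No batch is named in the labels, so line and experiment cannot be told apart in the comparison with WT either. The values are gene counts divided by the size factor of the library, called normalized counts. Reads of the single libraries were recovered from the decimals of the deposited means, and the 3 libraries of each line are numbered in order of their size factor. A gene is said to have risen or fallen when its log2 difference from WT had a Benjamini-Hochberg adjusted p under 0.05 by limma and its log2 ratio over the Col-0 of the same table lay on the same side. It is called 2-fold higher or lower when both of its log2 ratios of means were past 1 in the same direction. All log2 ratios were taken after adding 1 and were centred on the median gene, which lay 0.21 higher in amiNAA10 than in WT and 0.0018 higher than in the Col-0 of the same table.

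NAA10 itself checks the label. NAA10 (AT5G13780, TAIR10.1 chr5:4447259-4448675) had 108, 125 and 135 normalized counts in the amiNAA10 libraries, against 918, 845 and 892 in WT and a mean of 1109 in the Col-0 of the same table. The 3 amiNAA10 libraries lay far below every WT library, with a log2 difference of −3.04 (SE 0.10, limma adjusted p = 1.98e-08). EMB2753, the locus of the NatA auxiliary subunit NAA15, had a mean of 3532 in amiNAA10, against 2319 in the Col-0 of the same table and 2280 in WT, and was too abundant for the reads of its libraries to be read. NAA20, the catalytic subunit of NatB, had 308, 345 and 345 normalized counts in amiNAA10 and 297, 256 and 236 in WT, a log2 difference of 0.14 that did not pass the test (limma adjusted p = 0.31). Of 17 kept genes of the acetyltransferase subunits, 13 could be tested. Of these 3 rose (23.1%) and 1, NAA10, fell (7.69%), against 15.3% and 15.6% of all tested genes. The 3 that rose differed by little, as AT5G58450, the locus TCU2, with 972 in amiNAA10, 729 in the Col-0 of the same table and 690 in WT (log2 difference 0.30, SE 0.07, limma adjusted p = 0.0064). Without amiNAA10 library 1 or without amiNAA10 library 3, only 1 of them rose.

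Many genes moved, most of them by little. Of 14092 genes tested, 2151 rose (15.3%) and 2195 fell (15.6%), with a median absolute log2 difference of 0.53 and a median SE of 0.12. Without amiNAA10 library 1 the number that rose was 1433, and without library 3 it was 1403. Only 203 of those that rose and 354 of those that fell differed from WT by 2-fold or more. Over both Col-0 means, 132 of 19187 kept genes were 2-fold higher (0.688%) and 256 were 2-fold lower (1.33%), while without centring on the median gene the split was 193 higher and 150 lower. Between the 2 Col-0 means, 200 genes were 2-fold higher in that of the same table than in WT and 190 were 2-fold lower, so a gene was called only where both references gave the same side. Of the genes past 2-fold that could be tested, 99 of 101 rose and 217 of 228 fell by limma. Both rules draw on the same libraries and the same Col-0 mean, so this is no independent check. The 4861 kept genes with a mean of 1000 or more in amiNAA10 or WT were compared by their means only. The median coefficient of variation over 3 libraries was 8.28% in amiNAA10 and 9.69% in WT.

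Nuclear genes of the photosynthetic apparatus were lower in amiNAA10. The chlorophyll a/b-binding proteins of the antenna, many subunits of the photosystems and the small subunit of Rubisco are encoded in the nucleus. Their mRNAs are among the most abundant of a seedling. The GLK transcription factors act on many of the antenna genes, and a link between them and the genes below was not tested. All 20 antenna genes were kept, and 19 were below both Col-0 means (38.8% of all kept genes were), with a median log2 ratio of −0.83 over the Col-0 of the same table and −0.75 over WT. Of them, 13 were 1.5-fold lower or more, against 5.21% of kept genes. LHCB2.3 had a mean of 9076 in amiNAA10, against 23874 in the Col-0 of the same table and 20206 in WT. LHCB2.1, of the same antenna trimer, had 41631 against 84182 and 78313. These were the 2 antenna genes past 2-fold. LHB1B1 was the exception, with 24951 in amiNAA10, 24886 in the Col-0 of the same table and 16465 in WT. Copies of the LHCB1 genes are nearly identical and may share reads. LHCB4.3, the 1 antenna gene scarce enough to be tested, had 679, 911 and 708 normalized counts in amiNAA10 and 986, 1071 and 713 in WT. The lowest WT library overlapped the amiNAA10 libraries, and the log2 difference of −0.46 (SE 0.14) passed the test (limma adjusted p = 0.025).

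The 31 genes of photosystem subunits, plastocyanin, ferredoxin and Rubisco gave the same picture. Their median log2 ratios were −0.73 and −0.74, 29 of 31 were below both means and 22 were 1.5-fold lower or more. RBCS2B, a small subunit of Rubisco, had the lowest ratio, with 32279 in amiNAA10, 92141 in the Col-0 of the same table and 80965 in WT. PSBP-1, a subunit of the oxygen-evolving complex, had 32923 against 73775 and 62673. PSAL, a photosystem I subunit, had 29347 against 61857 and 51204. RBCS1B and the ferredoxin gene FED A were the 2 not below both means. GPRI1, which is GLK1, had a mean of 1135 in amiNAA10, against 5027 in the Col-0 of the same table and 3927 in WT, one of the largest differences among abundant genes (log2 ratios −2.15 and −2.0). GLK2 had 2621 against 4372 and 3598. The genes of chlorophyll synthesis as a list were near the median gene (−0.11 and −0.06, 14 kept). The exception was PORB, a light-dependent protochlorophyllide oxidoreductase, with 3433 in amiNAA10, 1198 in the Col-0 of the same table and 603 in WT. The GLK and chlorophyll lists were added after their values had been seen. Of 26 kept transcripts of the plastid genome, all tested, 12 fell (46.2%) and 0 rose, against 15.6% and 15.3% of all tested genes. Only 4 fell with a minimum mean of 100. Since poly(A) RNA was sequenced, plastid transcripts are read from a minor fraction.

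**Figure D1:**
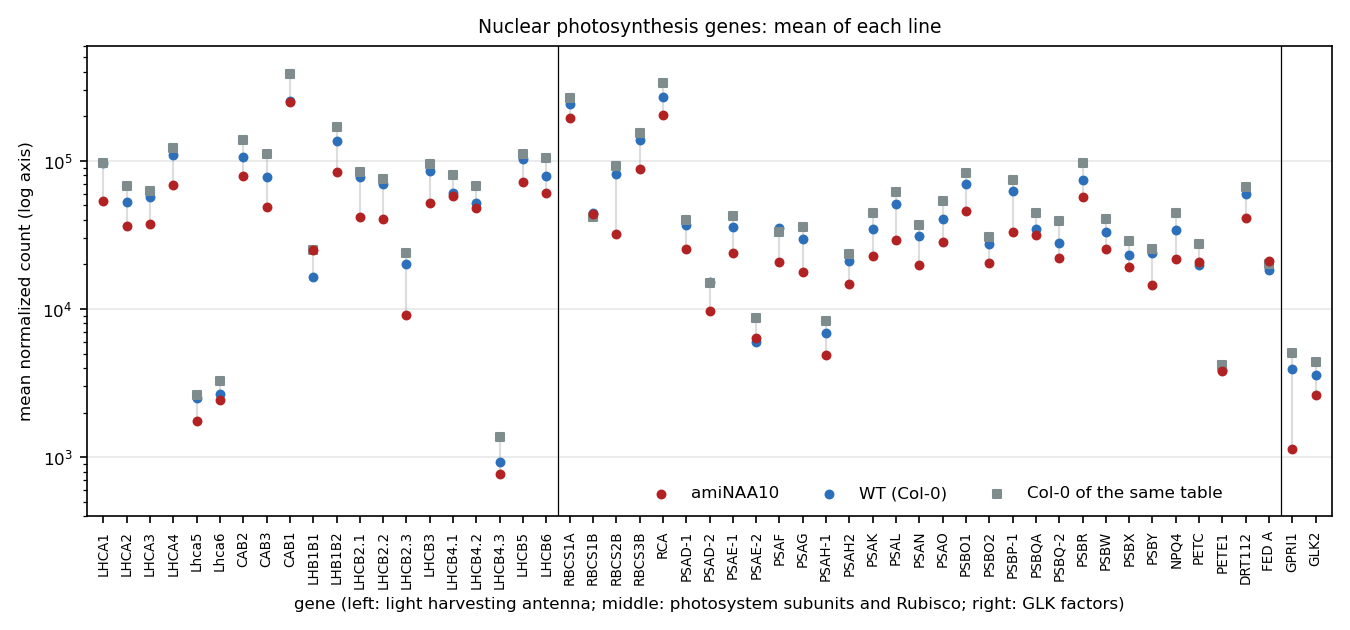
Mean normalized counts (log axis) of the nuclear antenna genes, the photosystem and Rubisco genes and the 2 GLK factors, with 1 red point for amiNAA10, 1 grey square for the Col-0 of the same table and 1 blue point for WT (Col-0) per gene. The red point is the lowest for most genes, and GPRI1 stands at 1135 in amiNAA10 against 5027 and 3927.

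The mRNAs of proteins that process organelle RNA were higher as a family. Pentatricopeptide repeat proteins are encoded in the nucleus and bind RNA in chloroplasts and mitochondria, where they edit, splice and stabilise transcripts. Of 466 measured members 425 were kept, with median log2 ratios of 0.40 over the Col-0 of the same table and 0.39 over WT, and 341 were above both means, against 38.8% of all kept genes. Of them, 80 were 1.5-fold higher or more, against 3.34% of kept genes. By limma, 158 of 399 tested members rose (39.6%, against 15.3% of all tested genes) and 0 fell. At an unadjusted p under 0.05 the counts were 209 higher and 4 lower. Without amiNAA10 library 3 the count that rose was 101, and with no minimum mean it was 105. The median over members of the log2 deviation from the mean of the 6 libraries was 0.18, 0.18 and 0.24 in the amiNAA10 libraries and −0.17, −0.26 and −0.12 in the WT libraries, with no overlap. Between the 2 Col-0 means the family had a median of 0.00. This family, the DEAD/DEAH helicases, the RNA recognition motif proteins and the aminoacyl-tRNA synthetases were added as lists after values had been seen.

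The changes were small gene by gene. ECB2, needed for editing in chloroplasts, had a mean of 573 in amiNAA10, 177 in the Col-0 of the same table and 235 in WT (log2 difference over WT 1.08, SE 0.09, limma adjusted p = 1.7e-05). OTP84, another chloroplast editing factor, had 193 against 92.1 and 75.0 (1.16, SE 0.12, limma adjusted p = 6.1e-05). AT3G23020 had 145, 171 and 179 normalized counts in amiNAA10 against 64.3, 59.5 and 59.2 in WT, and AT4G38010 had 62.6, 56.9 and 52.7 against 19.9, 16.1 and 21.4. The libraries of the 2 lines did not overlap for either gene. LOJ (LATERAL ORGAN JUNCTION) had 33.5, 51.4 and 50.8 in amiNAA10 and 12.7, 13.1 and 21.4 in WT. With ECB2, OTP84, AT2G15630 and AT2G27610, these made up the 7 members that were 2-fold higher over both means, and 0 members were 2-fold lower.

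Other RNA and translation factors leaned the same way. Among all tested genes 15.3% rose and 15.6% fell. Of 92 kept DEAD/DEAH helicases, which unwind RNA, 77 were above both means, and 28 of 49 tested rose and 0 fell, with 1 lower at an unadjusted p under 0.05 (median log2 ratios 0.32 and 0.29). AT1G51380 had 94.3, 70.4 and 105 normalized counts in amiNAA10 and 23.5, 41.4 and 42.9 in WT, and AT3G02060 had a mean of 2392 in amiNAA10, against 981 in the Col-0 of the same table and 959 in WT. Among proteins with an RNA recognition motif 45 of 135 tested rose and 3 fell, and 23 rose without amiNAA10 library 3. CP29, a chloroplast RNA-binding protein, had a mean of 12282 against 4058 and 4443. Of 20 aminoacyl-tRNA synthetases tested, which charge tRNAs, 6 rose and 0 fell (3 were lower at an unadjusted p under 0.05), and 3 rose without amiNAA10 library 1 and 2 without library 3. Of 151 nuclear ribosomal protein genes tested 64 rose and 11 fell, and 42 rose without amiNAA10 library 1. The median of the 421 kept ribosomal genes was 0.31 over the Col-0 of the same table and 0.15 over WT. Ribosomal paralogs may share reads. The 2 members past 2-fold were AT1G14205 and AT5G14470, which RefSeq also names galactokinase 2, a sugar kinase. Members were taken by a text match in the annotation, so the ribosomal list can hold genes that are not ribosomal proteins.

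**Figure D2:**
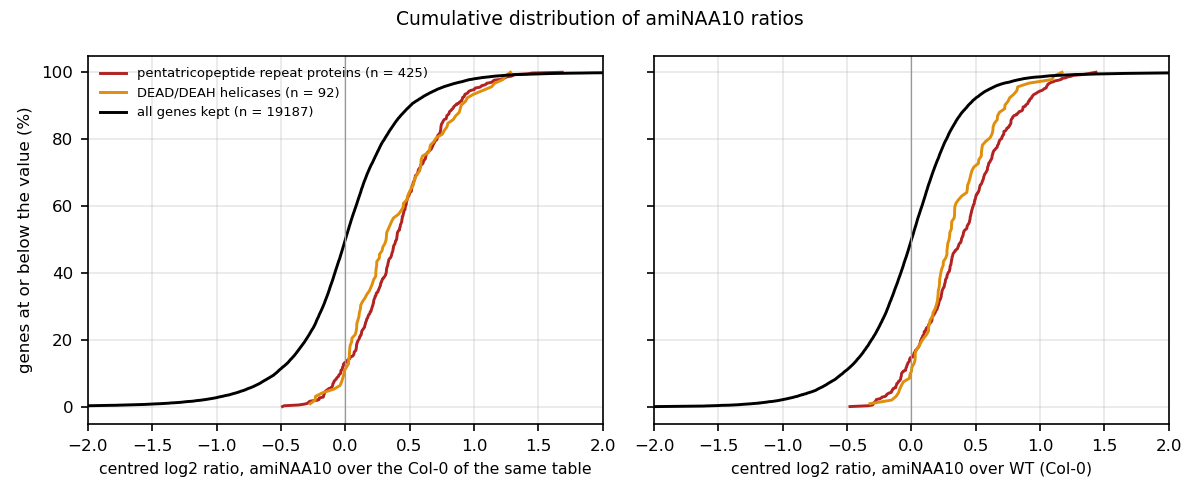
Cumulative share of genes (%) by centred log2 ratio of amiNAA10 over the Col-0 of the same table (left) and over WT (right), for pentatricopeptide repeat proteins (red, n = 425), DEAD/DEAH helicases (orange, n = 92) and all kept genes (black, n = 19187). Both families lie to the right of all genes over both references, with medians of 0.40 and 0.32 on the left and 0.39 and 0.29 on the right.

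The promoters of these families carry the site II element more often than the promoters of other genes. The element, TGGGCC on either strand, is common upstream of genes for translation and organelle proteins. It was found within 250 bases before the annotated start in 16.7% of 18749 promoters of kept genes, in 22.6% of those of genes that rose and in 8.44% of those of genes that fell. The share was 25.6% for pentatricopeptide repeat proteins, 34.8% for DEAD/DEAH helicases and 41.8% for ribosomal proteins. Among the genes that were 2-fold lower it was 4.55%. Among those 2-fold higher it was 12.8%, also below the 16.7% of all kept genes. The telo-box AAACCCTA was in 3.52% of all promoters, 4.98% of those of genes that rose and 1.70% of those of genes that fell. In the pentatricopeptide repeat family it was in 8.24%. Its share was 2.4% among genes 2-fold higher and 1.24% among those 2-fold lower. Many members were thus without either element, and a match is a description of the sequence only. The windows of 100 bases of OTP84 (chr3:21258507-21258606, minus strand) and AT4G38010 (chr4:17861414-17861513, minus strand) are shown since each holds 2 copies close together, and the capitals mark TGGGCC or its reverse complement. They are from the RefSeq TAIR10.1 genome and written 5′ to 3′ towards the gene.
OTP84: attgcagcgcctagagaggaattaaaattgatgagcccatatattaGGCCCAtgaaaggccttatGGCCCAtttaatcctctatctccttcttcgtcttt
AT4G38010: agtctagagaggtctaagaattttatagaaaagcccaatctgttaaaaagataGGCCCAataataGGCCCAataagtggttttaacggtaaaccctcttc

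Genes were named by size over both references, the 12 largest rises and falls among genes with a symbol. BT2 and SEN1 are also on the list of dark and sugar genes described below. BT2, a BTB and TAZ domain protein that responds to sugar and nitrate, had a mean of 1579 in amiNAA10, 135 in the Col-0 of the same table and 331 in WT. SEN1, a dark-inducible gene, had 1514 against 428 and 417. COL9, a CONSTANS-like zinc finger protein, had 287, 125 and 283 normalized counts in the amiNAA10 libraries and 17.2, 44.4 and 24.5 in WT, with a mean of 52.0 in the Col-0 of the same table. Its log2 difference was 2.78 (SE 0.35, limma adjusted p = 0.000211), and amiNAA10 library 2 was less than the other 2 but above all WT libraries. WCRKC1, a thioredoxin, had the same order, with 209, 56.9 and 193 in amiNAA10 and 19.0, 26.2 and 31.6 in WT (2.16, SE 0.41, limma adjusted p = 0.00222). BBX17, a B-box protein, had 172, 94.8 and 237 against 38.9, 50.5 and 52.1 (1.53, SE 0.27). In these genes library 2 was the lowest of the amiNAA10 libraries, and this was also seen for PRR3, ELF4 and other clock genes given later.

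STP14, a plasma membrane sugar transporter, had 545, 464 and 513 normalized counts in amiNAA10 and 103, 105 and 89.8 in WT, and 145 in the Col-0 of the same table (log2 difference 2.14, SE 0.11, limma adjusted p = 4.27e-07). DTX1, an efflux carrier of toxic compounds, had 262, 249 and 362 against 63.4, 77.7 and 68.4 (1.83, SE 0.16). THA1, threonine aldolase, had 225, 336 and 276 against 104, 64.6 and 71.4 (1.60, SE 0.19). The libraries of the 2 lines did not overlap for STP14, DTX1 or THA1. PP2-A13, related to phloem lectins, had 399, 310 and 455 against 82.4, 124 and 74.5, and MEE14 had 347, 209 and 342 against 65.2, 76.7 and 66.3. The largest ratio of all named genes was that of CRA1, a seed storage cruciferin, but it came from 1 library: the reads were 15, 457 and 1 in amiNAA10 and 0, 1 and 1 in WT, and the test was not passed (limma adjusted p = 0.063).

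Among the 12 largest falls, SAG29, a sucrose exporter of the SWEET family, had 44.1, 127 and 43.2 normalized counts in amiNAA10, against 681, 1169 and 520 in WT and 1507 in the Col-0 of the same table (log2 difference −3.75, SE 0.37, limma adjusted p = 3.99e-05). BAM6, a beta-amylase, had 27.3, 51.4 and 32.6 against 247, 270 and 193 in WT (−2.87, SE 0.22). HAK5, the high-affinity potassium transporter of roots, had 93.4, 113 and 57.5 against 384, 674 and 454 (−2.72, SE 0.24). All WT libraries were above all amiNAA10 libraries in each. ASPGB1, an asparaginase, had 137, 116 and 127 against 425, 533 and 425 (−2.05, SE 0.12, limma adjusted p = 1.04e-06). EGY3, related to chloroplast proteases, had 87.2, 88.4 and 77.7 against 318, 291 and 374 (−2.13, SE 0.13). UMAMIT36, of a family of amino acid exporters, had 52.9, 65.9 and 39.3 against 198, 181 and 157 (−1.96, SE 0.19). NUDT24, a nudix hydrolase, was past 2-fold by its means only: its 24.7, 48.7 and 20.1 in amiNAA10 stood beside 33.5, 393 and 28.6 in WT, where 1 library was high, and it did not pass the test (limma adjusted p = 0.15). GPRI1 was described above, and COR15A, BGLU28, DIN2 and ATSDI1 belong to lists described below.

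**Figure D3:**
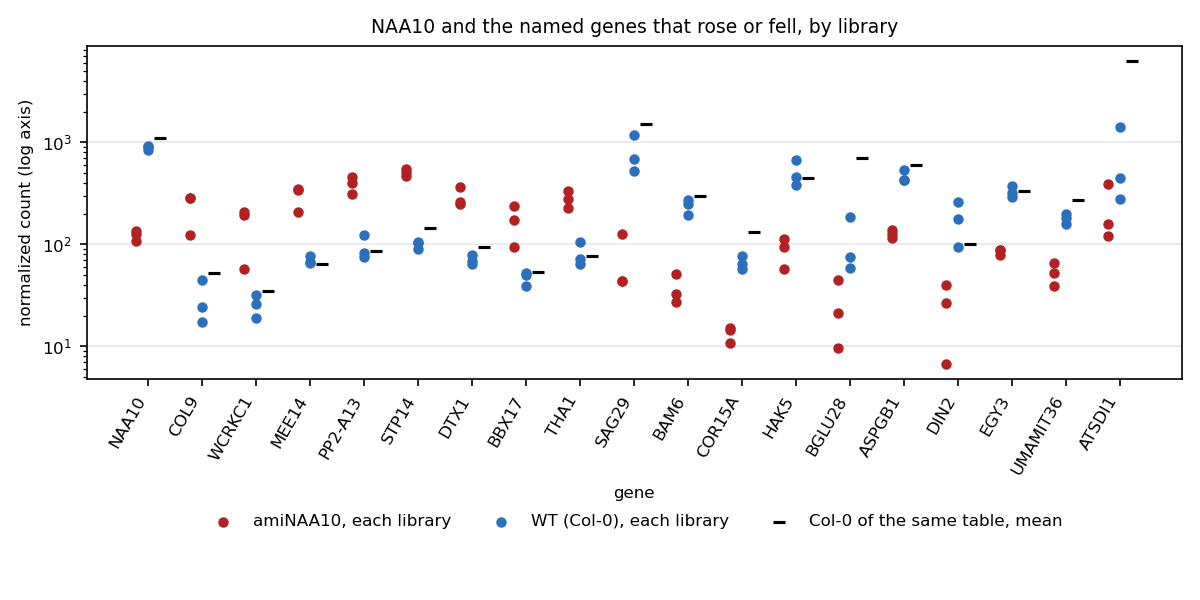
Normalized counts (log axis) of NAA10 and of the named genes that rose or fell, with 1 red point per amiNAA10 library, 1 blue point per WT (Col-0) library and a black dash for the Col-0 mean of the same table. NAA10 lies between 108 and 135 in amiNAA10 and between 845 and 918 in WT, and ATSDI1 is the gene whose libraries overlap.

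Genes that respond to darkness and low sugar, a list drawn up after values had been seen, were mostly higher. Of 18 members 16 were above both Col-0 means and 8 were 2-fold higher, against 38.8% and 0.688% of all kept genes. The median log2 ratio was 1.55 over the Col-0 of the same table and 0.88 over WT, and the 2 Col-0 means themselves differed by a median of −0.82 over the list. BXL1, a beta-xylosidase, had a mean of 7274 in amiNAA10, 1119 in the Col-0 of the same table and 2350 in WT. DIN10, a raffinose synthase-like gene, had 7895 against 1425 and 2836. TPS8, of the class II trehalose-phosphate synthase family, had 1560 against 416 and 663, while TPS5 of the same family was lower, with 758 against 2176 and 1247. Of the 6 members that could be tested, 5 rose and 1 fell, against 15.3% and 15.6% of all tested genes. TPS11 had 708, 671 and 623 normalized counts in amiNAA10 and 239, 334 and 200 in WT (log2 difference 1.2, SE 0.15, limma adjusted p = 0.00017). DYL1, a dormancy-associated gene, had 865, 595 and 736 against 233, 292 and 182. AT2G33830, dormancy associated gene 2, had 1036, 518 and 828 against 236, 196 and 185 (1.70, SE 0.20). DIN2, a beta-glucosidase named for dark induction, fell to 26.4, 39.7 and 6.71 in amiNAA10, against 178, 262 and 93.9 in WT (−3.20, SE 0.51, limma adjusted p = 0.000884).

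The I-box GATAAG, known from promoters of light-regulated genes and part of sugar-responsive elements, was within 250 bases of the start in 38.9% of the 18 promoters of this list, in 23.2% of the promoters of genes that were 2-fold higher, in 29.0% of the photosystem and Rubisco promoters and in 12.3% of all promoters searched. The windows of TPS8 (chr1:26474904-26475003, minus strand), TPS11 (chr2:8108775-8108874, plus strand) and AT2G33830 (chr2:14310702-14310801, minus strand) are given for genes that were higher, and that of RBCS2B (chr5:15382131-15382230, minus strand) for one that was lower, since the same letters stand in both. Capitals mark GATAAG or its reverse complement in the TAIR10.1 sequence.
TPS8: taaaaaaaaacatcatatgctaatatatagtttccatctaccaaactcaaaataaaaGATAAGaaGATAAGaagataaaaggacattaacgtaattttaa
TPS11: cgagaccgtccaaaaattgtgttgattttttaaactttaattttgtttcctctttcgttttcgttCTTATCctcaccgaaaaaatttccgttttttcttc
AT2G33830: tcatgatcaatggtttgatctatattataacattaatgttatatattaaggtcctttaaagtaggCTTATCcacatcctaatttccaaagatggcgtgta
RBCS2B: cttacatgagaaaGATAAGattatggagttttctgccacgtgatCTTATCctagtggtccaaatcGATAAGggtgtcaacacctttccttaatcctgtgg

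Clock genes differed in both directions. The clock is a set of transcription factors that peak in turn from morning to evening, so mRNA levels also depend on the hour of harvest, which is not in the labels. Of 24 kept clock genes, 9 were above both Col-0 means and 13 were below both, against 38.8% of all kept genes on each side. The median log2 ratio was −0.16 over the Col-0 of the same table and −0.17 over WT. At 1.5-fold, 6 were higher and 6 were lower. Of the 12 that could be tested, 7 rose (58.3%) and 2 fell (16.7%). Among all tested genes 15.3% rose and 15.6% fell. The 7 that rose are members of the day and evening sets. PRR3 had 189, 77.6 and 265 normalized counts in amiNAA10 and 21.7, 36.3 and 20.4 in WT, with 82.7 in the Col-0 of the same table (log2 difference 2.40, SE 0.37, limma adjusted p = 0.000746). ELF4 had 434, 253 and 362 against 84.2, 134 and 75.5 in WT and 243 in the Col-0 of the same table. ELF3, its partner in the evening complex, had 1024, 631 and 992 against 293, 337 and 263. PRR5 had 164, 91.1 and 137 against 29.0, 32.3 and 57.2. BOA and PCL1, Myb factors of the same complex, had means of 60.5 and 317 in amiNAA10, against 24.2 and 268 in the Col-0 of the same table and 19.0 and 175 in WT. TOC1 had 543, 427 and 628 in amiNAA10 and 271, 297 and 304 in WT. The morning gene PRR9 fell, with 298, 501 and 282 against 842, 828 and 805 (−1.44, SE 0.17, limma adjusted p = 0.00012), as did EPR1, with a mean of 315 against 343 and 379. CCA1, a morning factor too abundant to be tested, had a mean of 4449 in amiNAA10, 7352 in the Col-0 of the same table and 5979 in WT. RVE2, a Myb factor related to it, had 1194 against 298 and 182, and RVE1 had 1341 against 561 and 616. Over the tested clock genes the median deviation from the mean of 6 libraries was 0.59, 0.20 and 0.73 in amiNAA10 and −0.40, −0.20 and −0.42 in WT, so that library 2 of each line lay nearest to the other line.

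The evening element AAAATATCT, the site known to be bound by morning Myb factors, was within 250 bases of the start in 6 of 24 clock promoters (25.0%) and in 2.45% of all promoters, and the G-box CACGTG was in 37.5% against 7.31%. Over all genes the evening element was in 2.89% of the promoters of genes that rose and in 2.88% of those of genes that fell. Among clock genes the evening element was found in the promoters of 4 that rose, TOC1 (chr5:24674750-24674849, plus strand), PRR5 (chr5:8358696-8358795, minus strand), PCL1 (chr3:17182927-17183026, plus strand) and BOA (chr5:24003783-24003882, plus strand). Capitals mark it, or its reverse complement, in the TAIR10.1 sequence.
TOC1: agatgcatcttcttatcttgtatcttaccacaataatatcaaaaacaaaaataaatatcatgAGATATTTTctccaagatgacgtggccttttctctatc
PRR5: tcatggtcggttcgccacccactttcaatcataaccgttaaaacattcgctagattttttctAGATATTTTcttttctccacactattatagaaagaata
PCL1: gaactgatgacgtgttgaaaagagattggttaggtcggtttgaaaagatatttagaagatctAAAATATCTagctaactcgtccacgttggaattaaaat
BOA: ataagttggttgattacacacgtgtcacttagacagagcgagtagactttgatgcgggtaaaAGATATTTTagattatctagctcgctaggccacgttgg

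Sulphur deficiency genes were lower, by an amount that depends on the Col-0. These genes are induced when sulphate is short and serve uptake, reduction and the recovery of sulphur from glucosinolates. Of 14 kept genes 13 were below both means (38.8% of all kept genes were) and 7 were 2-fold lower. Of 8 tested genes 7 fell (87.5%, against 15.6% of all tested genes) and 0 rose. The median log2 ratio was −1.82 over the Col-0 of the same table and −1.03 over WT, and the 2 Col-0 means differed by a median of 1.14 over the list. ATSDI1, a repressor of glucosinolate synthesis, shows this most: its mean was 223 in amiNAA10, 6336 in the Col-0 of the same table and 708 in WT. Its libraries had 158, 391 and 120 in amiNAA10 and 444, 1404 and 276 in WT and overlapped (log2 difference −1.71, SE 0.51, limma adjusted p = 0.0228), and the call was lost without amiNAA10 library 1 (limma adjusted p = 0.087) and without library 3 (0.097). BGLU28, a beta-glucosidase of glucosinolate breakdown, had 21.1, 45.1 and 9.59 against 75.2, 187 and 58.2 in WT and 705 in the Col-0 of the same table (−2.29, SE 0.50). SULTR1;1, a root sulphate transporter, gave similar Col-0 values, with 12.3, 16.2 and 14.4 in amiNAA10, 49.8, 61.6 and 41.8 in WT and 42.8 in the Col-0 of the same table (−1.95, SE 0.26, limma adjusted p = 0.00028). LSU1 had a mean of 253 in amiNAA10, against 3199 in the Col-0 of the same table and 499 in WT. AT5G26220, gamma-glutamyl cyclotransferase 2;1 of glutathione breakdown, had 46.9 against 797 and 189. In WT, library 2 was the highest for ATSDI1, BGLU28 and AT5G26220.

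Flavonoid and anthocyanin genes, which make the pigments and sunscreens that accumulate in stressed or sugar-fed seedlings, followed the same order of lines. The median log2 ratio of 16 kept genes was −2.33 over the Col-0 of the same table and −0.48 over WT, the 2 Col-0 means differing by a median of 1.49. Of 12 tested genes 6 fell (50%, against 15.6% of all tested genes) and 0 rose, with 1 higher at an unadjusted p under 0.05. Those that fell were DFR, LDOX, UF3GT, AT4G14090, TT8 and GSTF12. DFR, dihydroflavonol reductase, had 248, 621 and 292 normalized counts in amiNAA10 and 561, 1438 and 392 in WT, with a mean of 3516 in the Col-0 of the same table, so that the libraries overlapped. LDOX, which acts after it, had 187, 402 and 230 against 509, 1151 and 380 and overlapped too (log2 difference −1.42, SE 0.34, limma adjusted p = 0.0083). TT8, a bHLH regulator, had 18.5, 34.3 and 24.0 against 44.4, 93.8 and 46.9, with no overlap. GSTF12, which takes anthocyanin to the vacuole, had 152, 267 and 174 against 323, 744 and 234, with overlap. These calls are weak: 3 fell without amiNAA10 library 1 and 3 without amiNAA10 library 3, 1 with no trend in the variance, and 0 when no minimum mean was set. The early gene TT4, chalcone synthase, had a mean of 16848 in amiNAA10, 26597 in the Col-0 of the same table and 14745 in WT.

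**Figure D4:**
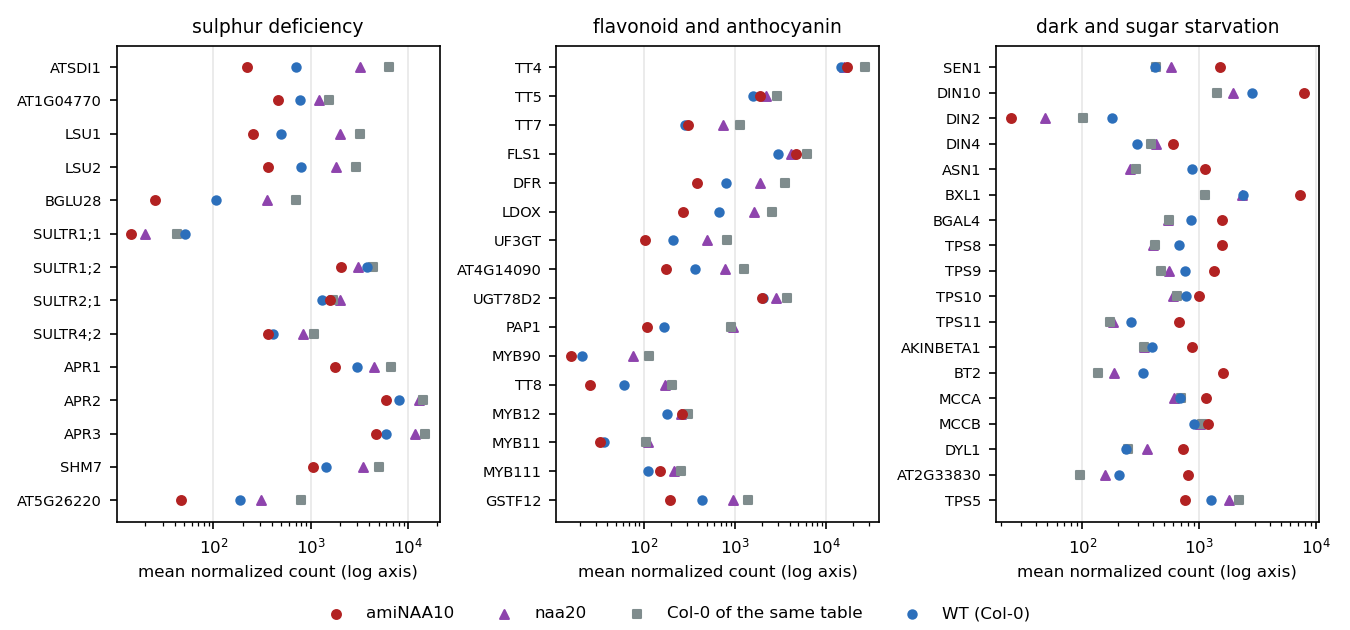
Mean normalized counts (log axis) of the genes of 3 lists in amiNAA10 (red circles), the line labelled naa20 (purple triangles), the Col-0 of the same table (grey squares) and WT (Col-0, blue circles). The 2 Col-0 means stand apart for many genes, as for ATSDI1 at 6336 and 708, and amiNAA10 is at the low end for sulphur genes and at the high end for most dark and sugar genes.

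Drought and abscisic acid (ABA) genes were lower in unstressed amiNAA10 seedlings. Of 30 kept genes 25 were below both means, against 38.8% of all kept genes. Of 18 tested 10 fell (55.6%) and 1 rose (5.56%), against 15.6% and 15.3% of all tested genes. The median log2 ratio was −0.77 over the Col-0 of the same table and −0.52 over WT, with a median of 0.42 between the 2 Col-0 means. COR15A, a chloroplast protein that protects membranes in frost, had 15, 10.8 and 14.4 normalized counts in amiNAA10, against 63.4, 57.5 and 76.5 in WT and 132 in the Col-0 of the same table (log2 difference −2.41, SE 0.25, limma adjusted p = 5.31e-05). Its neighbour and near copy COR15B was the member that rose, with 55.5, 22.6 and 49.9 against 7.25, 17.2 and 8.17 in WT (1.69, SE 0.41, limma adjusted p = 0.0087), and reads of the 2 copies may be shared. RD20, a calcium-binding lipid droplet protein, had 117, 95.7 and 86.3 against 151, 274 and 164. GolS2, which makes galactinol, had 67.9, 50.5 and 33.6 against 71.5, 175 and 103 (−1.34, SE 0.31). NCED3, the stress-induced enzyme of ABA synthesis, had 67.9, 69.5 and 56.6 against 75.2, 139 and 120, and CYP707A3 of ABA breakdown had 28.2, 30.7 and 46.0 against 71.5, 51.5 and 88.8. The ranges of the 2 lines did not overlap for these genes of drought response. Of late embryogenesis abundant proteins, which overlap this list, 12 of 30 tested fell (40%) and 2 rose (6.67%).

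Guard cell and stomatal lineage genes were lower too. Of 12 tested 6 fell (50%, against 15.6% of all tested genes) and 0 rose, with median log2 ratios of −0.30 and −0.40 over 13 kept genes. Of these 13, 10 were below both Col-0 means and 2 were above both. The genes named here are ones that were lower. KAT1, the inward potassium channel of guard cells, had 226, 253 and 232 normalized counts in amiNAA10 and 429, 425 and 416 in WT, with 509 in the Col-0 of the same table (log2 difference −1.03, SE 0.09, limma adjusted p = 1.6e-05). ALMT12, an anion channel of closing stomata, had 199, 234 and 181 against 354, 298 and 308. OZS1, which is the anion channel SLAC1, had 53.8, 59.6 and 44.1 against 82.4, 80.7 and 75.5. SPCH and TMM, which act in the lineage that gives rise to stomata, fell less, with log2 differences of −0.48 (SE 0.13) and −0.54 (SE 0.12).

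Genes of cell division and growth were lower by small steps. Of 13 mitotic genes tested 8 fell (61.5%) and 0 rose (0 higher at an unadjusted p under 0.05). Among all tested genes 15.6% fell and 15.3% rose. CYCB2;2, a B-type cyclin, had 51.1, 45.1 and 37.4 normalized counts in amiNAA10 and 69.7, 79.7 and 90.8 in WT (log2 difference −1.03, SE 0.19). CDKB2;1, the kinase of the transition to mitosis, had 181, 189 and 163 against 280, 234 and 305. SYP111, also known as KNOLLE, the syntaxin of the cell plate, had 241, 218 and 191 against 255, 296 and 337. The count was 5 without amiNAA10 library 1, 3 without amiNAA10 library 3 and 3 without WT library 3, which were the extreme libraries of their lines for this list (median deviations −0.16, −0.13 and −0.49 in amiNAA10 and 0.14, 0.18 and 0.44 in WT). Of 47 kinesins tested 22 fell (46.8%) and 1 rose. Without amiNAA10 library 3 10 of them fell, 14 without WT library 1 and 13 without WT library 3. HIK, a kinesin of cytokinesis, had a mean of 163 in amiNAA10, 231 in the Col-0 of the same table and 211 in WT. Of 57 kept kinesins 51 were below both means. Of 30 core histone genes tested 8 fell (26.7%) and 0 rose. The count that fell was 4 without amiNAA10 library 1, 5 without amiNAA10 library 3 and 5 without WT library 1. These lower counts are near the share of all tested genes. HTA4, a variant of histone H2A, fell most, with 7.05, 3.61 and 3.84 against 54.3, 46.4 and 64.3 (−3.49, SE 0.34). Of 14 expansins tested, which loosen cell walls, 6 fell (42.9%) and 0 rose. Of 42 SAUR genes tested, which auxin induces, 13 fell (31.0%) and 3 rose. The genes of the shoot meristem and of the root endodermis and stem cell niche had 0 calls in limma of 3 and 7 tested, with 0 and 2 at an unadjusted p under 0.05, and 1 of 14 root hair genes, RSL2, fell.

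Of 18 jasmonate genes tested by limma 6 fell and 0 rose (0 were higher at an unadjusted p under 0.05). JAZ1, a repressor of the pathway, had 283, 260 and 299 normalized counts in amiNAA10 and 380, 358 and 383 in WT, and the regulator MYC2 had 537, 672 and 499 against 735, 879 and 768. Of 17 salicylic acid genes tested 3 rose (17.6%) and 2 fell (11.8%), shares near the 15.3% and 15.6% of all tested genes. SARD1, a regulator of salicylic acid synthesis, had 71.4, 35.2 and 56.6 against 10.9, 7.06 and 8.17 in WT and 24.0 in the Col-0 of the same table (log2 difference 2.3, SE 0.33). EDS16, the isochorismate synthase, had 461, 468 and 493 against 248, 269 and 293, whereas PBS3, a later step of the pathway, fell to 22, 20.8 and 28.8, against 86.0, 104 and 67.4 in WT. Of 54 WRKY factors 19 fell and 3 rose, and 12 fell and 0 rose without amiNAA10 library 3. Of 59 NAC factors 12 fell and 2 rose, and of 83 ERF factors 20 fell and 11 rose. ORA59, an ERF factor of ethylene and jasmonate defence, rose to 85.5, 50.5 and 77.7 in amiNAA10, against 23.5, 15.1 and 18.4 in WT. In glucosinolate synthesis MYB51, the regulator of the indolic branch, rose, with 226, 182 and 220 against 87.9, 69.6 and 65.3, while FMO GS-OX3, of side chain modification in the aliphatic branch, fell, with 501, 717 and 450 against 1005, 879 and 981.

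Of 120 cytochrome P450 genes tested 28 fell (23.3%) and 15 rose (12.5%), against 15.6% and 15.3% of all tested genes, and 8 rose without amiNAA10 library 3. CYP78A9, of a group that acts on organ size, had 82.8, 101 and 75.8 normalized counts in amiNAA10 and 135, 184 and 163 in WT. Of 42 lipid transfer proteins tested 8 fell and 1 rose, and 5 fell without WT library 1. Of 27 aquaporins kept, which carry water across membranes, 17 were below both means, against 38.8% of all kept genes, but by limma only 2 of 12 tested fell (16.7%) and 0 rose, a share near that of all tested genes. Of 22 glutathione S-transferases tested 9 fell and 2 rose, and the abundant GSTU20 had a mean of 3115 in amiNAA10, against 6768 in the Col-0 of the same table and 5543 in WT. Of 19 xyloglucan endotransglucosylases tested, which remodel the cell wall, 0 rose and 0 fell by limma, with 2 higher and 2 lower at an unadjusted p under 0.05. The median of the 28 kept was 0.12 over the Col-0 of the same table and −0.16 over WT. XTH31, too abundant to be tested, had a mean of 1121 in amiNAA10, against 2527 in the Col-0 of the same table and 3085 in WT.

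Of 16 iron genes tested 2 rose (12.5%) and 1 fell. FER4, a ferritin, rose, with 617, 435 and 497 normalized counts in amiNAA10 against 227, 219 and 308 in WT (log2 difference 0.84, SE 0.15). FRU, the bHLH regulator of iron uptake known as FIT, fell, with 370, 289 and 372 against 509, 494 and 522. The iron list as a whole had medians of −0.52 over the Col-0 of the same table and 0.06 over WT. Of 9 tested genes of the mitochondrial dysfunction response only DTX1 rose, and the list gave −0.45 over the one reference and 0.13 over the other. Of 28 proteasome subunits tested, which degrade ubiquitin-marked proteins, 4 rose (14.3%) and 0 fell (1 was lower at an unadjusted p under 0.05), and 2 rose without amiNAA10 library 1, without amiNAA10 library 3 or without WT library 1. The 2 autophagy genes that rose of 8 tested were ATG8D, with 398, 327 and 375 against 181, 212 and 174, and APG5. Of the 2 endoplasmic reticulum chaperone genes that could be tested by limma 0 passed, at an unadjusted p under 0.05 as well. Of 27 small heat shock proteins tested 3 rose (11.1%) and 6 fell (22.2%), against 15.3% and 15.6% of all tested genes. AT5G47590 rose to 495, 483 and 508, against 131, 103 and 128 in WT (1.84, SE 0.11, limma adjusted p = 1.7e-06), whereas HSP18.2 fell to 29.1, 19.0 and 23.0, against 54.3, 76.7 and 60.2.

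**Figure D5:**
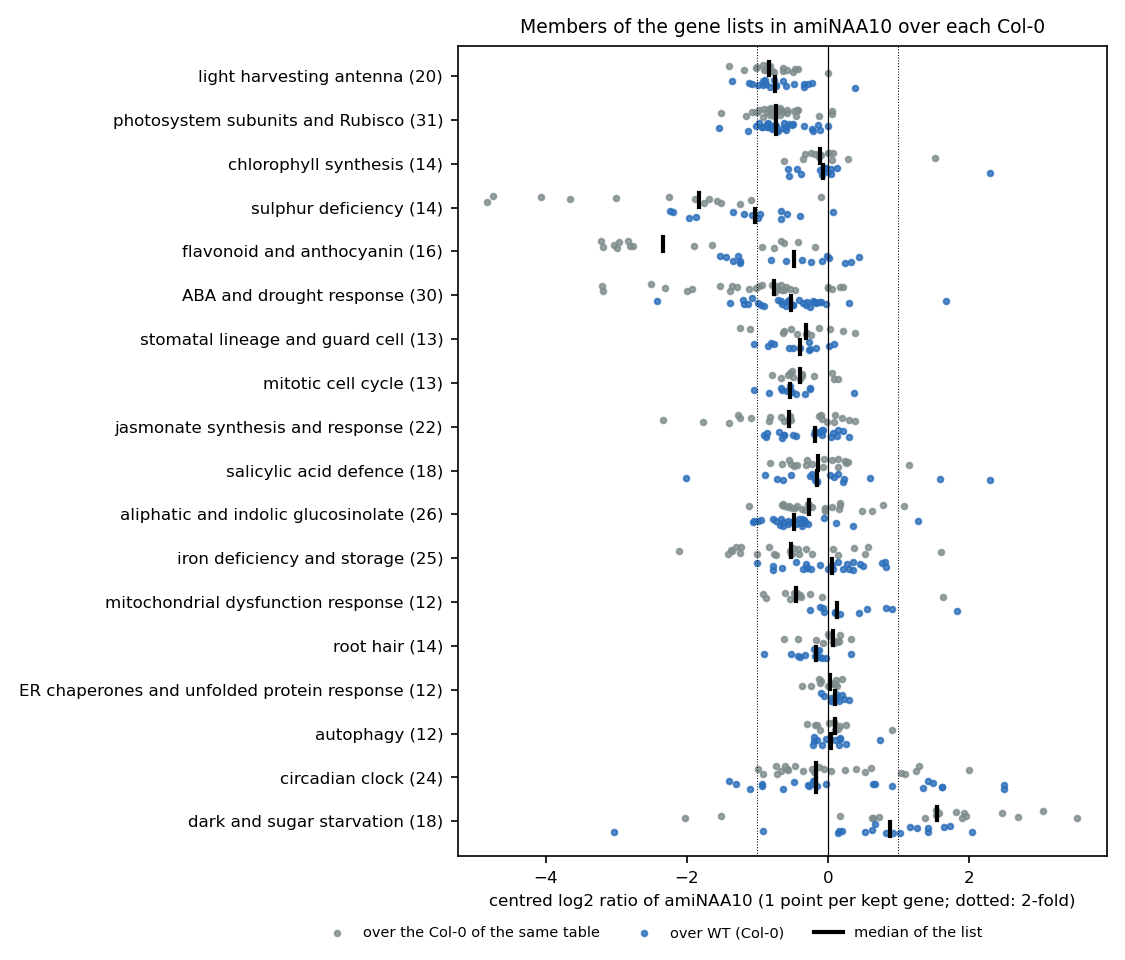
Centred log2 ratio of amiNAA10 over the Col-0 of the same table (grey) and over WT (blue), with 1 point per kept gene, the number of genes in brackets and a black bar at each median. The antenna and photosystem lists lie left of 0 over both references, and the dark and sugar list lies to the right, with medians of 1.55 and 0.88.

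The shares of genes that rose or fell were close to each other for the 4 classes of N-terminus. Proteins of kept genes were grouped by the residue after the initiator methionine, taken from the RefSeq coding sequence. The 8783 genes with a NatA-type residue (A, S, T, V, G or C) had median log2 ratios of 0.00 over both references, and of the 6006 tested 15.4% rose and 16.1% fell. For the 3651 genes of NatB type these shares were 15% and 15.6%, and for the 2435 genes of the NatC, NatE and NatF types 16.8% and 15.8%. For the 955 genes with P, R or H they were 15% and 14.2%. These 4 classes lie near the 15.3% and 15.6% of all tested genes. Single residues spread more widely, as for the 67 tested genes with W, of which 29.9% rose and 10.4% fell, and the 386 with N, of which 18.1% rose and 11.9% fell, with no test made.

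The line labelled naa20 and amiNAA10 lack different acetyltransferase activities by their labels, and their profiles differed in part. By the data statement of the study both lines were set against the same Col-0 libraries, whose means are rescaled in each table, so only the direct contrast of their libraries is given as a test. In that contrast 2927 of 13932 genes were higher in amiNAA10 and 2879 were lower by limma. Some of the largest changes were seen in both lines. From WT, the log2 differences in the line labelled naa20 were 1.83 for COL9, 1.27 for STP14 and −1.87 for DIN2. Those in amiNAA10 were 2.78, 2.14 and −3.20 in the same order. Others differed little from WT in the line labelled naa20, as SAG29 (0.18) and MEE14 (0.05). Named genes that moved in opposite directions are given below. In the line labelled naa20 the NAA20 mRNA was not lower but higher, with 676, 692 and 672 normalized counts against 297, 256 and 236 in WT. The label does not give the kind of mutation, so the mRNA level does not check it, and the product was not measured. The pentatricopeptide repeat family had median log2 ratios of 0.40 and 0.39 in amiNAA10, and of 0.00 over the Col-0 of its table and −0.02 over WT in the line labelled naa20. The antenna list had −0.83 and −0.75 in amiNAA10, and −0.61 and −0.46 in the line labelled naa20. For the list of sulphur deficiency the values were −1.82 and −1.03 in amiNAA10 and −0.45 and 0.74 in the line labelled naa20, and for dark and sugar genes 1.55 and 0.88 against 0.15 and −0.49. In doa10a/b RNAi 4-2, where 115 genes were higher and 123 lower than in WT of 14288 tested, the pentatricopeptide repeat family had a median of 0.13 over WT and the antenna list −0.01.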

How the data were processed

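Total poly(A) RNA of 3 libraries per line was sequenced by the authors. Their deposited tables give, per transcript and line, 1 mean of normalized counts. This is a signal value: the authors scaled the counts of every library with a size factor, then took the mean of the line. The same tables hold 4 columns of the authors' comparison (log2 fold change, p-value, adjusted p-value and a call), which were not used. Tools in the submitters' processing notes are TopHat2 2.0.12 with Bowtie2 2.2.3, DESeq 1.18.0 and HTSeq 0.6.1, on TAIR10. The study's methods name HISAT2 and other packages, so the aligner behind the counts is not settled.

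The means are sums of whole reads, each divided by 3 times a size factor. The 3 steps per line were found from low means, and the whole-number triple that gives each mean was solved for means under 1000. It was unique for 98.7% of amiNAA10 genes (19423 of 19679) and for 100% in the other lines. On simulated means the triples were correct for 99.98% or more. Size factors were 1.04 to 1.13 in amiNAA10 and 0.98 to 1.10 in WT, and the means sum to 21625944 in amiNAA10 and 20338996 in WT. Libraries could not be matched to replicate numbers. The labels and methods call the libraries replicates of pooled seedlings, and p-values measure the spread between them only.

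Reads were scaled by the median of ratios, and limma 3.58.1 (R 4.3.3) with a variance trend was run on log2(scaled reads + 1) for amiNAA10 against WT, over 14092 genes with both means under 1000 and a mean over amiNAA10 and both Col-0 means of at least 20. The plan held no test, since only means were expected: limma was added after the data were seen. On simulated data it called 0.065% of 13892 unchanged genes, 61.2% of 67 genes changed 1.5-fold and 95.5% of 67 genes changed 2-fold. The simulation had an assumed dispersion, few changed genes and no shift shared by many genes of a library. Its rates are thus not the error rates of the test on the real libraries. Of the kept genes 4861 were at 1000 or more and 234 had no unique solution, and these were compared by means only. Log2 ratios of means used a pseudocount of 1 and were centred on the median kept gene. The normalized counts printed are on the scale of each deposited table, not centred.

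The 26 gene lists, 28 families and the rules were chosen with earlier results of these data known, and 7 of the lists and families were added after values had been seen. Named genes are NAA10, the 12 largest rises and falls by the smaller of the 2 absolute ratios among genes with a symbol and at least 100 normalized counts in the higher group, and up to 3 per list. Any other gene was picked as an example with its values known. Symbols and promoters came from RefSeq (TAIR10.1), which has an entry for 19098 of 19187 kept genes. Alternatives were the pseudocount, the filter, centring, the fold, either Col-0 alone, the variance trend, scaling by total reads and leaving out each library.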

Additional observations from a re-analysis of the deposited data

Results flagged for a closer look

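In 6 named genes amiNAA10 and the line labelled naa20 moved in opposite directions from WT, and the direct contrast of their libraries passed the test by limma with Benjamini-Hochberg adjustment. BGLU28 differed between amiNAA10 and the line labelled naa20 by a log2 difference of −4.13, being −2.29 from WT in amiNAA10 and 1.83 in the line labelled naa20. TT8 differed by −2.79 (−1.39 in amiNAA10 and 1.39 in the line labelled naa20), and GSTF12 by −2.41 (−1.19 and 1.21 in the same order). AT2G33830, dormancy associated gene 2, differed by 2.21 (1.70 and −0.51). BRU6, an auxin-conjugating enzyme of the GH3 family, differed by −2.10 (−1.15 and 0.94), and AT4G12490, of the lipid transfer protein family, by −1.78 (−1.16 and 0.62). For BGLU28, TT8, GSTF12 and AT2G33830 the 2 Col-0 means differ as well, and over the Col-0 of its own table the line labelled naa20 lay on the same side as amiNAA10 for these 4, below it for BGLU28, TT8 and GSTF12 and above it for AT2G33830 (log2 ratio of means 0.80).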

How the results depend on the processing

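The number of genes 2-fold higher over both Col-0 means, 132, became 287 with no filter on the mean, 77 with a mean of at least 100, 376 with only the Col-0 of the same table, 263 with only WT, 640 at 1.5-fold and 9 at 4-fold. The number 2-fold lower, 256, became 485, 146, 558, 439, 1000 and 20 under the same alternatives. Without centring the split was 193 higher and 150 lower. Leaving out 1 library at a time, 1403 to 2006 genes rose and 1568 to 2093 fell. Of 718 alternative values for the 62 named genes that were tested, 693 kept their direction and their side of the threshold. The call was lost under at least 1 alternative for 12 of these genes, and under leaving out a library for 3 of them, ATSDI1, GSTF12 and NAC096. List medians over WT changed sign without centring for salicylic acid (0.0536), jasmonate (0.0334), clock (0.0399), root hair (0.0420) and root endodermis genes (0.0283). The last was 0.0239 with no filter, and medians over the Col-0 of the same table changed sign for salicylic acid genes with a mean of at least 100 (0.0959) and for shoot meristem genes with no filter (0.0470). No paired analysis was possible because the recovered libraries carry no replicate number. The seed storage list had no median with a mean of at least 100. limma was not run against the Col-0 of the same table, which was used as a mean only, and genes with a mean of 1000 or more were not tested. A recovery of reads from lower means alone was planned and not run.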

Other observations

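The named genes leave out loci without a symbol, and those given here were picked after their values had been seen. AT3G18535, annotated as a tubulin-tyrosine ligase, had 335, 354 and 297 reads in amiNAA10 and 0, 0 and 0 in WT. The line labelled naa20 had 237, 241 and 223 normalized counts of it and doa10a/b RNAi 4-2 a mean of 189, against 1.06 in the Col-0 of the amiNAA10 table, so all 3 lines other than Col-0 held the transcript. AT1G67105, a noncoding RNA in RefSeq, had 912, 571 and 630 normalized counts in amiNAA10, 452, 569 and 451 in the line labelled naa20 and 46.2, 52.5 and 46.9 in WT. AT3G55240 fell to 86.4, 102 and 62.3 in amiNAA10, against 552, 395 and 589 in WT (log2 difference −2.81, SE 0.19).

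Neighbouring loci on chromosome 4 were low together. HTA4, AT4G13572 and AT4G13575 carry adjacent locus numbers, and their log2 differences from WT were −3.49, −4.01 and −4.31. AT4G13575 had 38.8, 27.1 and 35.5 normalized counts in amiNAA10, 232, 190 and 239 in the line labelled naa20 and 499, 603 and 694 in WT.

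Seed storage and embryo genes were read mainly in 1 amiNAA10 library. Over the 14 genes of the list the reads summed to 96, 605 and 51 in the amiNAA10 libraries and to 112, 80 and 64 in WT. CRA1 alone gave 457 of the 605 reads of amiNAA10 library 2, and CRU3, another cruciferin, gave 42.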
